A study of Mus musculus with 10 samples.

Results

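The unfolded protein response and its chaperones were followed through 32 genes in endothelial cells purified from mouse gliomas. The genes were taken by symbol from a set named for this response, and all 32 were found among the 23238 symbols of the count files used. They comprised 9 lumenal chaperones and co-chaperones, 2 lectin chaperones, 4 protein disulfide isomerases and 3 stress sensors. The others were 3 transcription factors, 5 target genes of ATF4 and CHOP, 4 genes of ER-associated degradation and 2 of the translocon. Gliomas were grown by injecting GL26 cells (spelled GL26l in the design text) into the brains of congenic C57BL/6 mice. The deficient mice carried Sox7fl/fl or Sox17fl/fl alleles bred with Cdh5(BAC)-CreERT2, a driver line whose recombinase works in endothelium once tamoxifen is given, and received 20 mg/kg of tamoxifen into the peritoneum. Sox7 and Sox17 are related transcription factors of developing vessels. There were 2 Sox7-deficient libraries with 2 Sox7 controls, and 3 Sox17-deficient libraries with 3 Sox17 controls, in numbered sets of 1 deficient and 1 control library. The labels do not give the genotype or treatment of the controls, so deletion, tamoxifen and recombinase activity cannot be told apart. They also do not say whether each library came from its own mice, so the p-values measure the spread between these libraries, which may be partly technical.

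The endoplasmic reticulum (ER) folds secreted and membrane proteins, and unfolded proteins there draw the chaperone BiP (Hspa5) away from the sensors IRE1 (Ern1), PERK (Eif2ak3) and ATF6. IRE1 splices the Xbp1 transcript into the form that encodes an active factor. PERK slows translation but favours that of ATF4, which induces CHOP (Ddit3). Cleaved ATF6 enters the nucleus and, with XBP1, induces chaperones and degradation genes. Splicing, translation and cleavage are not read by 3′ tags, so transcript levels here are levels of the genes' output and not of the pathway's activity. Endothelial cells secrete matrix and coagulation proteins and so use this machinery at rest.

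The promoters of these genes carry short elements by which the response is known, and they are shown because the genes were chosen by function and not by sequence. The ER stress response element, which binds NF-Y and ATF6, is CCAAT, any 9 bases, then CCACG. It was searched on both strands in the RefSeq promoters of GRCm38.p6, which span 250 bases before and 50 after each start. Of the 32 genes 29 had an entry, while Hyou1, Manf and Atf6 had none. The element was in 8 of the 29 (27.6%), against 37 of all 27025 promoters (0.137%). It was first described in chaperone promoters such as that of Hspa5, so its presence there is not new information. Each site is given with 5 bases on either side, read 5′ to 3′ on the strand named, with the fixed bases in capitals.
Hspa5 (chr2:34772020-34772048, plus strand): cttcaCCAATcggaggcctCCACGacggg
Calr (chr8:84847070-84847098, plus strand): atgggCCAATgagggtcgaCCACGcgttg
Hsp90b1, farther from the start (chr10:86705633-86705661, minus strand): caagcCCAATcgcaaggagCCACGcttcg
Hsp90b1, nearer to the start (chr10:86705528-86705556, plus strand): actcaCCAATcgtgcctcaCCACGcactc
Canx (chr11:50325795-50325823, minus strand): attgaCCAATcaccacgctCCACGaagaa
Pdia6 (chr12:17266486-17266514, plus strand): agagaCCAATgaaaggcggCCACGgcgtg
Dnajc3 (chr14:118937822-118937850, plus strand): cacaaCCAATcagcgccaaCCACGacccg
Creld2 (chr15:88819515-88819543, minus strand): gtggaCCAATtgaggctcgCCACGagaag
Syvn1 (chr19:6046527-6046555, plus strand): cgcaaCCAATcggcggtagCCACGggaac

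These elements lay between 212 and 26 bases before RefSeq's start, and Hsp90b1 held 2 of them. The GENCODE bounds printed with genes below cover all transcripts, and their 5′ end can differ from that start. For Hspa5 it lies 120 bases before it, so that the element is inside those bounds, and for the other genes with a site printed here it differs by at most 65 bases. The holders were mostly folding genes: 4 lumenal chaperones or co-chaperones, both lectin chaperones, Pdia6, and Syvn1 of ER-associated degradation. A second form, ATTGG, 1 base, then CCACG, was in 2 of the 29 promoters (6.9%), against 12 of all 27025 (0.0444%).
Herpud1 (chr8:94386372-94386392, plus strand): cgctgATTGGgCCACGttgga
Dnajb11 (chr16:22857847-22857867, plus strand): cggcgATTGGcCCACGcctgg

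The Herpud1 element began 52 bases before RefSeq's start, and that of Dnajb11 lay 8 to 18 bases after it. The CCACG part alone was in 23 of the 29 promoters (79.3%), against 9589 of all (35.5%), and it lies within both elements. TGACGTGG, a site named for XBP1 and ATF6, was in 0 of the 29, against 193 of all (0.714%). The C/EBP-ATF element, TGATGNAAN, through which ATF4 and CHOP act, was in 4 of the 29 promoters (13.8%), against 1215 of all (4.5%).
Chac1 (chr2:119351043-119351061, minus strand): aggagTGATGcAAcggcag
Trib3 (chr2:152344034-152344052, plus strand): ccggcTGATGtAAacctga
Asns (chr6:7693219-7693237, minus strand): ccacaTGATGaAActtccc
Herpud1 (chr8:94386311-94386329, minus strand): cgggcTGATGcAAcccgcc

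Of its 4 holders, Chac1, Trib3 and Asns belong to the ATF4 and CHOP target genes, and Herpud1 also holds the second form of the ER stress response element. A match is a description of these letters and not evidence of binding. The 10 genes with either form of the ER stress response element had a median of 226.6 CPM (18.8 to 1831), and the 19 without one had 46.3 CPM (1.27 to 1174). CPM is the count divided by the TMM-scaled library total, on the usual CPM scale.

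Total counts were between 2085020 (Sox17 control 1) and 35098704 (Sox17-deficient 2), and 3 counts, the limit that a count of 0 allows, were worth 0.0847 to 1.36 CPM. These limits cover counting error only. The deleted genes checked the labels: Sox7 had 0.577 and 0.664 CPM in Sox7-deficient libraries, against 23.1 and 5.90 CPM in Sox7 controls, and Sox17 had 1.93, 1.07 and 6.70 CPM in Sox17-deficient libraries, against 174, 90.1 and 93.4 CPM in Sox17 controls. All 14 endothelial markers had counts in every library, summing to between 10080 and 20187 CPM. Sox7-deficient 1 stood apart: its 17 macrophage and microglia markers summed to 21805 CPM, against 203 CPM in Sox7-deficient 2, 470 to 1289 CPM in Sox7 controls, 54.8 to 390 CPM in Sox17-deficient libraries and 30.4 to 832 CPM in Sox17 controls. In that library C1qa alone had 9172 CPM, and Cdh5 was at 214 CPM, against 300 to 626 CPM in the 9 others. The median, the counts by role and a part of the genes of the Sox7 comparison are also given without that library. The ribosomal RNA precursor Rn45s took 28.8% and 22.2% of counts in Sox7-deficient 1 and Sox7 control 1, and 7.03% and 4.64% in Sox7-deficient 2 and Sox7 control 2. Markers of B and plasma cells, whose ER is large, summed to at most 28.5 CPM and those of T and NK cells to at most 20.3 CPM. Fibroblast markers reached at most 73.2 CPM, pericyte and smooth muscle markers 292 to 1317 CPM, and astrocyte, oligodendrocyte and neuron markers 114 to 848 CPM. Erythroid markers were at 3373 CPM in Sox17 control 1 and at most 505 CPM elsewhere. With edgeR 0 genes of any marker list passed in either comparison, but their directions were uneven. In the Sox7 comparison 12 of 14 endothelial markers had fitted changes below 0, and in set 1 the deficient library was lower for all 14, while 16 of 16 macrophage markers, 8 of 10 pericyte and smooth muscle markers and 10 of 12 astrocyte, oligodendrocyte and neuron markers were above 0. In Sox7 sets 1 and 2 the deficient library was higher for 16 and 5 of those 16 macrophage markers. It was higher for 3 and 8 of the 10 pericyte and smooth muscle markers, and for 8 and 9 of the last 12. In the Sox17 comparison 10 of 10 pericyte and smooth muscle markers (smallest unadjusted p = 0.00155, edgeR adjusted p = 1), 7 of 7 erythroid markers and 15 of 16 macrophage markers were below 0, and 8 of 14 endothelial markers were above. In Sox17 sets 1 to 3 the deficient library was lower for 9, 9 and 3 of the 10 pericyte and smooth muscle markers. It was lower for 1, 15 and 10 of the 16 macrophage markers and for 6, 7 and 7 of the 7 erythroid markers. The part of any of these marker lists in the results was not tested. In bulk RNA, fewer cells of a type and less RNA per cell cannot be told apart.

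The genes spanned more than 3 orders of magnitude in level. The kit reads 1 tag near the 3′ end of a transcript, so CPM of different genes can be set side by side without division by length. Hspa5 was highest, with a mean of 1831 CPM over the 10 libraries (1185 to 2630), followed by Pdia3 at 1174, Calr at 665 and Hsp90b1 at 615 CPM. All of these are folding genes, and their levels here do not show whether the response was active. Means over 1000 CPM were found for 2 genes, 100 to 1000 CPM for 16, 10 to 100 CPM for 10 and under 10 CPM for 4. The lowest were Asns, Chac1, Ern1 and Sesn2, with means of 7.12, 3.14, 2.76 and 1.27 CPM, and with counts in 9, 6, 7 and 4 of the 10 libraries. The other 28 had counts in every library. For 13 of the 32 the highest library was less than 3-fold above the lowest.

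**Figure D1:**
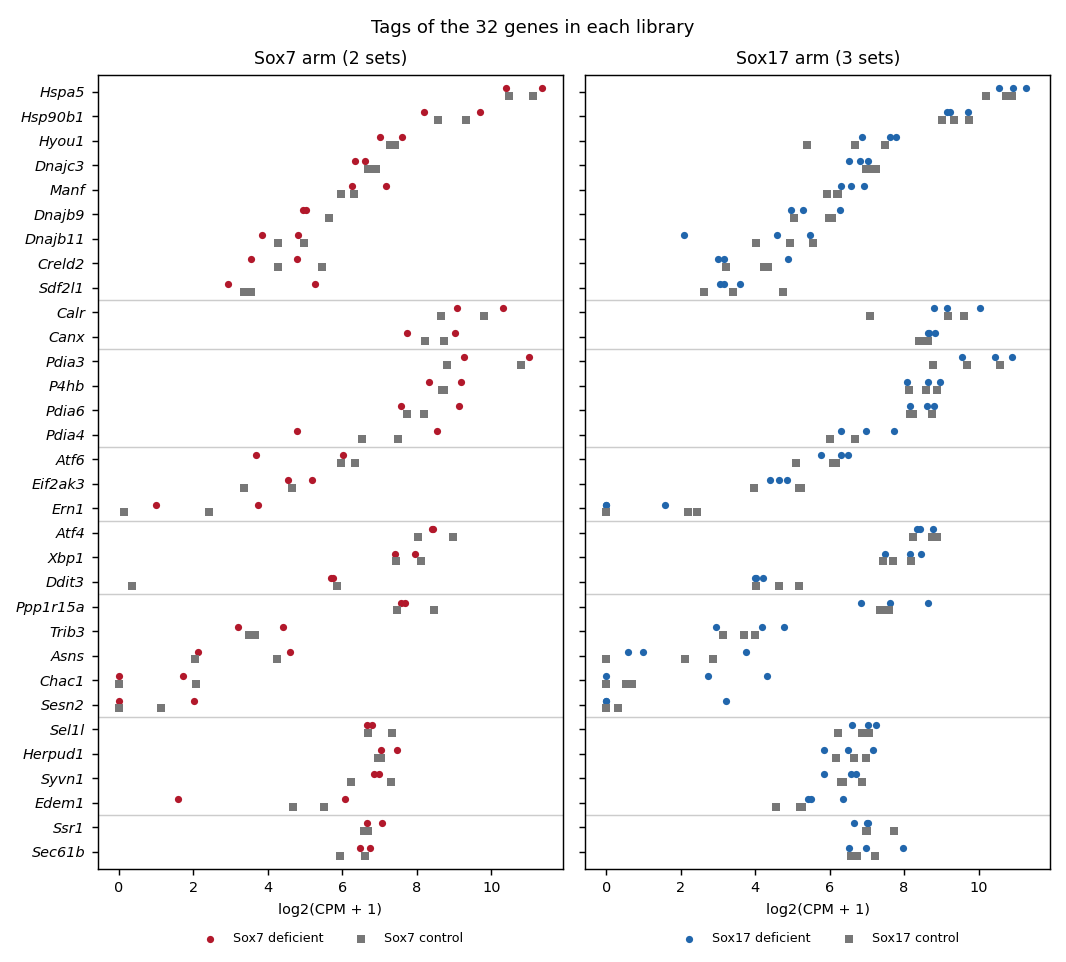
Level of each gene in each library, as log2(CPM + 1), with deficient libraries as circles and controls as squares, ordered by role and by mean level. Hspa5 lies between 1185 and 2630 CPM in all 10 libraries, and the coloured and grey points of most genes overlap.

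No gene of the response passed the test in either comparison. In Sox7-deficient against Sox7 control libraries, 20 of the 32 had a fitted fold change above 0 and 12 below, and the median was 0.14 on the log2 scale, against 0.04 over all 13040 genes tested. With edgeR's quasi-likelihood test 0 of the 32 passed an adjusted p of 0.05, as did 0% of all genes. At an unadjusted p under 0.05, 0 of the 32 and 1.5% of all genes were counted, and the smallest unadjusted p among the 32 was 0.191, for Atf6. In Sox17-deficient against Sox17 control libraries, 19 were above 0 and 13 below, with a median of 0.22, against 0.05 over all genes. Again 0 of the 32 and 0% of all genes passed, and 0 of the 32 were counted at an unadjusted p under 0.05, against 3.52% of all genes. The Sox17 median was 0.08 without Sox17 control 1 and 0.09 without Sox17-deficient 3, against 0.01 over all genes in both fits. It was 0.11 without Sox17-deficient 1, against −0.02 over all genes. With DESeq2 and the replicate block, which pairs the libraries of a set, it was 0.07. The median over all genes was −0.31 there, with 17148 genes and no filter on low counts. In the Sox17 comparison with all 10 libraries, edgeR's smallest unadjusted p among the 32 was 0.140, for Hyou1. DESeq2 and limma-voom also called 0 of the 32 in either comparison, while over all genes DESeq2 called 3 in the Sox7 comparison and 37 in the Sox17 comparison, and limma-voom called 0 in each. The spread over all genes was wide, with a common biological coefficient of variation of 0.989. The median standard error of the 32 was 0.59 on the log2 scale in the Sox7 comparison. For the Sox7 difference minus the Sox17 difference it was 0.77, against 1.54 over all genes, so these genes varied less than most. Over the 28 genes with a count in every library the medians were 0.13 and 0.18 in the Sox7 and Sox17 comparisons.

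The Sox7 median rested on single libraries. Without Sox7-deficient 1, the library with macrophage transcripts, it was −0.42 with 10 genes above 0 and 22 below, and the median over all genes was −0.26. Without Sox7-deficient 2 it was 0.44, with 20 genes above 0 and 12 below, and the median over all genes was 0.01. Counts of genes that passed stayed at 0 of 32 in both, also where, without Sox7-deficient 1, 0.1% of all genes passed. At an unadjusted p under 0.05 there were then 3 of the 32, Pdia4 at −2.38, Atf6 at −2.61 and Edem1 at −4.14, against 5.96% of all genes. The lone deficient library left is assumed there to vary like the other groups. By role, the genes above 0 without that library were 2 of 9 lumenal chaperones and co-chaperones, 0 of 2 lectin chaperones, 0 of 4 disulfide isomerases, 2 of 3 sensors, 2 of 3 transcription factors, 1 of 5 ATF4 and CHOP targets, 2 of 4 degradation genes and 1 of 2 translocon genes. Herpud1 was then at 0.45, Dnajb9 at −0.64 and Dnajc3 at −0.48 on the log2 scale, each with the sign it had in the full comparison. Atf4 at −0.17, Ddit3 at 0.85 and Manf at 0.10 also kept their signs. The signs of Calr, at −0.31, and Hsp90b1, at −0.82, turned.

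**Figure D2:**
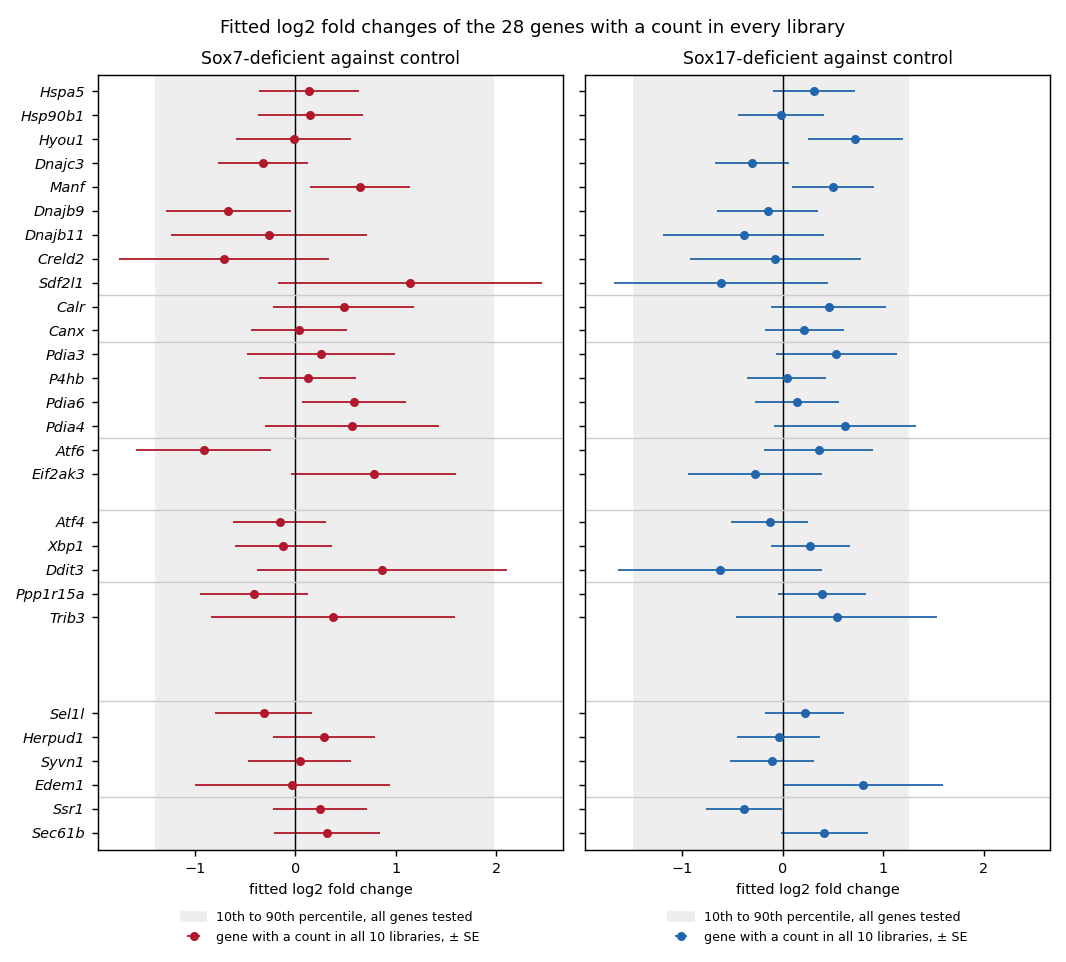
Fitted log2 fold change of the 28 genes with a count in every library, deficient against control, with its standard error, for the Sox7 arm (left) and the Sox17 arm (right); the grey band runs from the 10th to the 90th percentile of all 13040 genes tested. The gaps are Ern1, Asns, Chac1 and Sesn2, which had libraries at 0, and the points lie within the band.

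Groups separated in few genes. In the Sox7 comparison, both deficient libraries were above both controls for 1 gene, Herpud1, against 12.7% of all genes, and below both for 2, Dnajb9 and Dnajc3, against 12.8% of all genes. In the Sox17 comparison all 3 deficient libraries were above all 3 controls for Manf, Edem1 and Canx, 3 of 32 against 4.13% of all genes, and below for 0 of 32, against 4.23% of all genes. Across all 5 sets the deficient library was above its own control for 0 of the 32, against 3.32% of all genes. It was below for 1, Dnajc3, against 3.34% of all genes. The share among the 32 was above that of all genes for the 3 genes apart and higher in the Sox17 comparison, near it for Dnajc3, and below it for the other counts.

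Hspa5 (ENSMUSG00000026864, GRCm38 chr2:34771970-34777547, plus strand) encodes BiP, the main lumenal HSP70 chaperone. It had 2630 and 1351 CPM in Sox7-deficient 1 and 2, against 2211 and 1412 CPM in Sox7 control 1 and 2. It had 1496, 2495 and 1934 CPM in Sox17-deficient 1 to 3, against 1185, 1692 and 1906 CPM in Sox17 control 1 to 3. In each Sox17 set the deficient library was the higher one, but the groups overlapped, and in the Sox7 arm the 2 libraries of set 1 were above the 2 of set 2. The fitted log2 fold changes were 0.14 (SE 0.50) in the Sox7 comparison and 0.31 (SE 0.41) in the Sox17 comparison, each with an edgeR adjusted p = 1. The Sox7 value was −0.45 without Sox7-deficient 1 and −0.15 without Sox7 control 2.

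Among the other lumenal chaperones, Dnajc3 (ENSMUSG00000022136, chr14:118937976-118981697, plus strand), a J-domain co-chaperone of BiP, was the gene below control in every set. It had 96.0 and 80.3 CPM in Sox7-deficient 1 and 2, against 119 and 101 CPM in Sox7 control 1 and 2. It had 111, 129 and 90.3 CPM in Sox17-deficient 1 to 3, against 124, 151 and 133 CPM in Sox17 control 1 to 3. The groups were apart in the Sox7 arm and overlapped in the Sox17 arm, where Sox17-deficient 2 stood above Sox17 control 1. The log2 fold changes were −0.32 (SE 0.45) and −0.30 (SE 0.37) in the Sox7 and Sox17 comparisons, with edgeR adjusted p = 1 in both. Dnajb9 (ENSMUSG00000014905, chr12:44205559-44210326, minus strand), another J-domain partner of BiP, had 29.6 and 31.7 CPM in Sox7-deficient 1 and 2, against 48.6 and 48.8 CPM in Sox7 control 1 and 2. Both deficient libraries were low and the controls nearly equal, yet the fitted log2 fold change of −0.67 had a standard error of 0.62 (edgeR adjusted p = 1). Its groups overlapped in the Sox17 arm, with 76.1, 37.9 and 30.3 CPM in Sox17-deficient 1 to 3, against 62.2, 31.8 and 66.2 CPM in Sox17 control 1 to 3.

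Manf (ENSMUSG00000032575, chr9:106838312-106891979, minus strand) encodes a small ER protein that binds BiP and is secreted under stress. It had 119, 94.3 and 78.8 CPM in Sox17-deficient 1 to 3, against 74.0, 60.4 and 72.5 CPM in Sox17 control 1 to 3. All 3 deficient libraries lay above the controls, with set differences of 0.68, 0.64 and 0.12 in log2(CPM + 1). Its log2 fold change was 0.50 (SE 0.41, edgeR adjusted p = 1). In the Sox7 arm it had 142 and 75.9 CPM in Sox7-deficient 1 and 2, against 61.1 and 78.5 CPM in Sox7 control 1 and 2, so that the groups overlapped. Hyou1, a large HSP70 relative that helps BiP exchange nucleotide, had the smallest unadjusted p of the Sox17 comparison. It had 117, 197 and 217 CPM in Sox17-deficient 1 to 3, against 41.3, 101 and 178 CPM in Sox17 control 1 to 3. Each deficient library was above its own control, but the groups overlapped (log2 fold change 0.72, SE 0.47, edgeR adjusted p = 1). In Sox7-deficient 1 and 2 it had 194 and 129 CPM, against 171 and 155 CPM in Sox7 control 1 and 2.

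Of the 9 lumenal chaperones and co-chaperones, 4 had a fitted change above 0 in the Sox7 comparison and 3 in the Sox17 comparison, with medians of −0.02 and −0.07. In Sox7 set 1 the deficient library was higher for 6 of the 9, and in set 2 it was lower for all 9, with a median set difference of −0.33. The Sox17 sets had 6, 6 and 4 of 9 higher in the deficient library. Summed over the group, levels were 3996 and 2005 CPM in Sox7-deficient 1 and 2, against 3291 and 2256 CPM in Sox7 control 1 and 2. Hsp90b1, the lumenal HSP90 known as GRP94, carried much of that sum after Hspa5, with 827 and 293 CPM in Sox7-deficient 1 and 2, against 633 and 377 CPM in Sox7 control 1 and 2. Its Sox17 values were 599, 834 and 563 CPM in deficient 1 to 3, against 518, 852 and 649 CPM in control 1 to 3. Dnajb11, Creld2 and Sdf2l1, smaller partners of lumenal folding, had means between 10 and 50 CPM and the widest set differences of the group, from −1.93 (Dnajb11, Sox17 set 3) to 1.71 (Sdf2l1, Sox7 set 1).

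**Figure D3:**
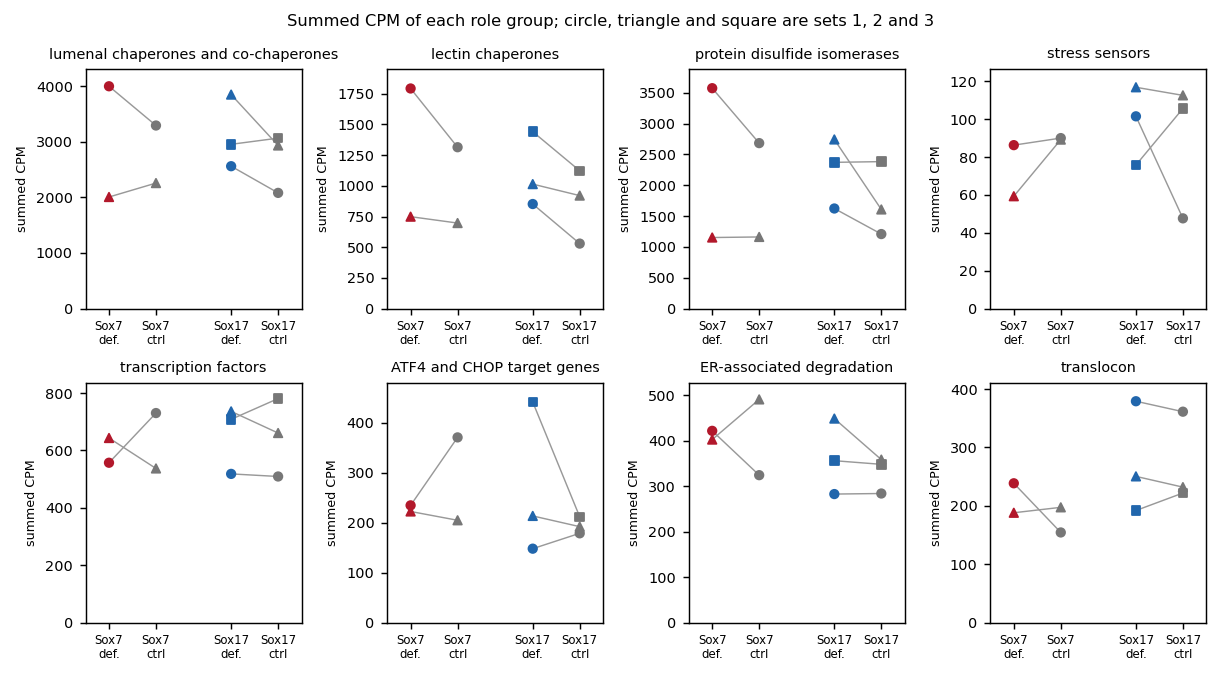
Summed CPM of the genes of each role in every library; coloured points are deficient libraries, grey points controls, and lines join the 2 libraries of a set. Lumenal chaperones sum to 3996 and 2005 CPM in Sox7-deficient 1 and 2, and the lines of most roles slope both ways within an arm.

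Calnexin and calreticulin bind glucose-trimmed sugars on new glycoproteins and hold them until folded. Canx (ENSMUSG00000020368, chr11:50293961-50325673, minus strand) had 408, 451 and 398 CPM in Sox17-deficient 1 to 3, against 395, 338 and 349 CPM in Sox17 control 1 to 3. The groups did not overlap, although Sox17-deficient 3 and Sox17 control 1 differed by less than 3 CPM. The log2 fold change was 0.22 (SE 0.39, edgeR adjusted p = 1). In Sox7-deficient 1 and 2 Canx had 519 and 214 CPM, against 420 and 296 CPM in Sox7 control 1 and 2, with no separation and a fold change whose sign turned with upper quartile scaling. That log2 fold change was 0.03 with all libraries and −0.77 without Sox7-deficient 1. Calr had 1274 and 535 CPM in Sox7-deficient 1 and 2, against 895 and 401 CPM in Sox7 control 1 and 2. Each deficient library was above its own control, but the distance between sets was larger than that between genotypes. Calr in the Sox17 arm had 444, 563 and 1044 CPM in deficient 1 to 3, against 134, 583 and 774 CPM in control 1 to 3. A pseudogene named for it, Calr-ps, exists in the annotation, so its counts are uncertain if the authors' counting split reads between copies.

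The protein disulfide isomerases form and shuffle disulfide bonds, and Pdia3 works beside the lectin chaperones. All 4 had fitted changes above 0 in both comparisons, with medians of 0.41 and 0.34 in the Sox7 and Sox17 comparisons, except that P4hb turned below 0 with upper quartile scaling in the Sox17 comparison. Without Sox7-deficient 1 all 4 were below 0 in the Sox7 comparison, with a median of −0.66. In Sox7 set 1 all 4 were higher in the deficient library and in set 2 only Pdia3 was. Their sums were 3575 and 1153 CPM in Sox7-deficient 1 and 2, against 2684 and 1162 CPM in Sox7 control 1 and 2. Pdia4 varied most, with 371 and 26.4 CPM in Sox7-deficient 1 and 2, against 178 and 91.3 CPM in Sox7 control 1 and 2. Pdia4 was above its own control in all 3 Sox17 sets, at 78.8, 124 and 209 CPM in deficient 1 to 3, against 63.5, 101 and 102 CPM in control 1 to 3. Pdia3 had 750, 1909 and 1380 CPM in Sox17-deficient 1 to 3, against 440, 824 and 1521 CPM in Sox17 control 1 to 3. P4hb, which is also a subunit of collagen prolyl hydroxylase, and Pdia6 each stayed within a 3-fold range over the 10 libraries. The smallest unadjusted p of the 4 was 0.272, for Pdia6 in the Sox7 comparison.

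The sensors Ern1, Eif2ak3 and Atf6 had means of 2.76, 24.9 and 60.8 CPM, far below the 1831 CPM of Hspa5. The mean of Atf6 was above those of the lumenal genes Dnajb9, Dnajb11, Creld2 and Sdf2l1. Ern1, for IRE1, had 7 and 92 counts in Sox7-deficient 1 and 2, against 36 and 1 in Sox7 control 1 and 2. It had 0, 0 and 16 counts in Sox17-deficient 1 to 3, against 0, 56 and 58 in Sox17 control 1 to 3. With 3 libraries at 0, and the sets going both ways in the Sox7 arm, no fold change is given. Eif2ak3, for PERK, had 22.1 and 35.3 CPM in Sox7-deficient 1 and 2, against 24.2 and 9.31 CPM in Sox7 control 1 and 2. It had 23.8, 27.7 and 20.2 CPM in Sox17-deficient 1 to 3, against 14.5, 36.6 and 35.4 CPM in Sox17 control 1 to 3. Neither arm separated. Atf6 had 63.2 and 11.8 CPM in Sox7-deficient 1 and 2, against 61.5 and 79.8 CPM in Sox7 control 1 and 2. Only Sox7-deficient 2 was low, and the log2 fold change of −0.91 had a standard error of 0.67 (edgeR adjusted p = 1). In the Sox17 arm Atf6 had 77.7, 89.1 and 53.6 CPM in deficient 1 to 3, against 33.1, 71.6 and 66.7 CPM in control 1 to 3.

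Xbp1 (ENSMUSG00000020484, chr11:5520659-5525893, plus strand) had 170 and 246 CPM in Sox7-deficient 1 and 2, against 173 and 278 CPM in Sox7 control 1 and 2. It had 178, 284 and 349 CPM in Sox17-deficient 1 to 3, against 172, 206 and 291 CPM in Sox17 control 1 to 3. Its deficient library was the lower one in both Sox7 sets and the higher one in all 3 Sox17 sets, with overlapping groups in each arm. The log2 fold changes were −0.12 (SE 0.49) and 0.28 (SE 0.40) in the Sox7 and Sox17 comparisons, and their difference of −0.40 (SE 0.63) had an edgeR adjusted p = 1.00. The Sox7 value was 0.10 without Sox7-deficient 1 and 0.26 without Sox7 control 2.

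Atf4 (ENSMUSG00000042406, chr15:80255184-80257541, plus strand) was among the steadier genes, within 259 to 500 CPM in all libraries. It had 336 and 344 CPM in Sox7-deficient 1 and 2, against 500 and 259 CPM in Sox7 control 1 and 2. It had 325, 434 and 345 CPM in Sox17-deficient 1 to 3, against 302, 431 and 475 CPM in Sox17 control 1 to 3. The deficient values lay inside the range of the controls in the Sox7 arm and overlapped them in the Sox17 arm. The log2 fold changes were −0.16 (SE 0.47) and −0.13 (SE 0.38) in the Sox7 and Sox17 comparisons, with edgeR adjusted p = 1 in both. The first was 0.37 without Sox7 control 1 and the second 0.01 without Sox17 control 3.

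Ddit3 (ENSMUSG00000025408, chr10:127290774-127296288, plus strand) encodes CHOP, a factor tied to death after long ER stress. It had 51.2 and 53.2 CPM in Sox7-deficient 1 and 2, against 57.2 and 0.277 CPM in Sox7 control 1 and 2. The low value was a count of 3 in a library of 9699934 counts, whereas the 9 other libraries had 77 or more counts. The fitted log2 fold change of 0.86 (SE 1.24, edgeR adjusted p = 1) rested on that library and was −0.13 without it. It was 3.30 with the replicate block (adjusted p = 1), 3.94 with limma-voom (unadjusted p = 0.0172, adjusted p = 1.00), 3.50 with DESeq2 and the replicate block (unadjusted p = 0.00478, adjusted p = 0.335) and 7.48 without Sox7 control 1 (adjusted p = 0.0854). In the Sox17 arm Ddit3 had 15.3, 17.6 and 14.9 CPM in deficient 1 to 3, against 34.9, 24.1 and 15.1 CPM in control 1 to 3. Each deficient library was below its own control, by 0.02 to 1.14 in log2(CPM + 1), but Sox17-deficient 1 and 2 were above Sox17 control 3. The log2 fold change was −0.63 (SE 1.02, edgeR adjusted p = 1). Its last 500 bases overlap an exon of Mars on the opposite strand, and reads of the 2 genes cannot be told apart if the counting ignored strand, which is not given in the sources used here. The same holds for Manf with Dcaf1, Pdia6 with Atp6v1c2, Ppp1r15a with Tulp2 and Syvn1 with Mrpl49.

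Of the ATF4 and CHOP target genes in this set, those other than Ppp1r15a were at low levels. This does not hold for the further genes of that axis read below, such as Slc7a1 and Slc7a5. Ppp1r15a encodes GADD34, which brings a phosphatase to eIF2-alpha and restores translation. It had 206 and 191 CPM in Sox7-deficient 1 and 2, against 352 and 177 CPM in Sox7 control 1 and 2. It had 115, 196 and 395 CPM in Sox17-deficient 1 to 3, against 163, 181 and 193 CPM in Sox17 control 1 to 3. The highest and the lowest of the Sox17 arm were thus both deficient libraries. Trib3, a pseudokinase induced by CHOP, had 20.1 and 8.10 CPM in Sox7-deficient 1 and 2, against 11.5 and 10.2 CPM in Sox7 control 1 and 2. It had 6.74, 17.1 and 26.6 CPM in Sox17-deficient 1 to 3, against 15.0, 7.82 and 12.1 CPM in Sox17 control 1 to 3, again overlapping. Asns, the asparagine synthetase, went with the set in the Sox7 arm, at 3.32 and 23.1 CPM in deficient 1 and 2, against 3.11 and 18.1 CPM in control 1 and 2. In the Sox17 arm it had 91, 18 and 8 counts in deficient 1 to 3, against 0, 42 and 102 in control 1 to 3.

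Chac1, which degrades glutathione, and Sesn2, a stress-induced sestrin, were counted in few libraries. Chac1 had 16 and 0 counts in Sox7-deficient 1 and 2, against 27 and 0 in Sox7 control 1 and 2. Its counts were 41, 0 and 154 in Sox17-deficient 1 to 3, against 1, 0 and 10 in Sox17 control 1 to 3. In both arms set 2 was at 0 in deficient and control libraries alike, and in Sox17 set 2 that is 0 in 35098704 counts of the deficient library. Sesn2 had 21 and 0 counts in Sox7-deficient 1 and 2, against 10 and 0 in Sox7 control 1 and 2, and 60, 0 and 0 counts in Sox17-deficient 1 to 3, against 0, 0 and 4 in Sox17 control 1 to 3. Of the 5 target genes, 5 had fitted changes above 0 in the Sox17 comparison and 3 in the Sox7 comparison, but fitted values of the 3 genes with libraries at 0 depend on the prior count.

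ER-associated degradation sends proteins that fail to fold back to the cytosol. Edem1 (ENSMUSG00000030104, chr6:108828641-108859356, plus strand), a mannosidase relative that marks glycoproteins for this route, had 41.7, 80.8 and 44.3 CPM in Sox17-deficient 1 to 3, against 22.7, 35.6 and 37.2 CPM in Sox17 control 1 to 3. The 3 deficient libraries lay above the controls, with a log2 fold change of 0.80 (SE 0.80, edgeR adjusted p = 1). In Sox7-deficient 1 and 2 Edem1 had 66.1 and 1.99 CPM, against 24.5 and 44.9 CPM in Sox7 control 1 and 2, so that the highest and lowest library were both deficient. Herpud1 (ENSMUSG00000031770, chr8:94386438-94395377, plus strand), a membrane scaffold of the ubiquitin ligase, had 131 and 177 CPM in Sox7-deficient 1 and 2, against 124 and 130 CPM in Sox7 control 1 and 2. Sox7-deficient 1 exceeded Sox7 control 2 by less than 2 CPM (log2 fold change 0.28, SE 0.51, edgeR adjusted p = 1). In the Sox17 arm Herpud1 had 89.3, 142 and 56.7 CPM in deficient 1 to 3, against 70.8, 125 and 100.3 CPM in control 1 to 3.

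Sel1l and Syvn1 (HRD1) form the ligase complex itself. Sel1l had 111 and 99.4 CPM in Sox7-deficient 1 and 2, against 102 and 160 CPM in Sox7 control 1 and 2. It had 95.5, 131 and 152 CPM in Sox17-deficient 1 to 3, against 74.4, 117 and 133 CPM in Sox17 control 1 to 3. Sel1l was thus above control in each Sox17 set, with overlapping groups. Syvn1 had 114 and 125 CPM in Sox7-deficient 1 and 2, against 74.5 and 157 CPM in Sox7 control 1 and 2. It had 56.4, 95.1 and 103 CPM in Sox17-deficient 1 to 3, against 116, 81.3 and 77.8 CPM in Sox17 control 1 to 3, with its sets going both ways. Of the translocon genes, Sec61b of the channel had 106 and 88.5 CPM in Sox7-deficient 1 and 2, against 60.1 and 95.8 CPM in Sox7 control 1 and 2. Its Sox17 values were 250, 124 and 91.3 CPM in deficient 1 to 3, against 149, 106 and 94.4 CPM in control 1 to 3. Ssr1, of the translocon-associated complex, kept within 94.2 to 212 CPM, with its highest value in Sox17 control 1.

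**Figure D4:**
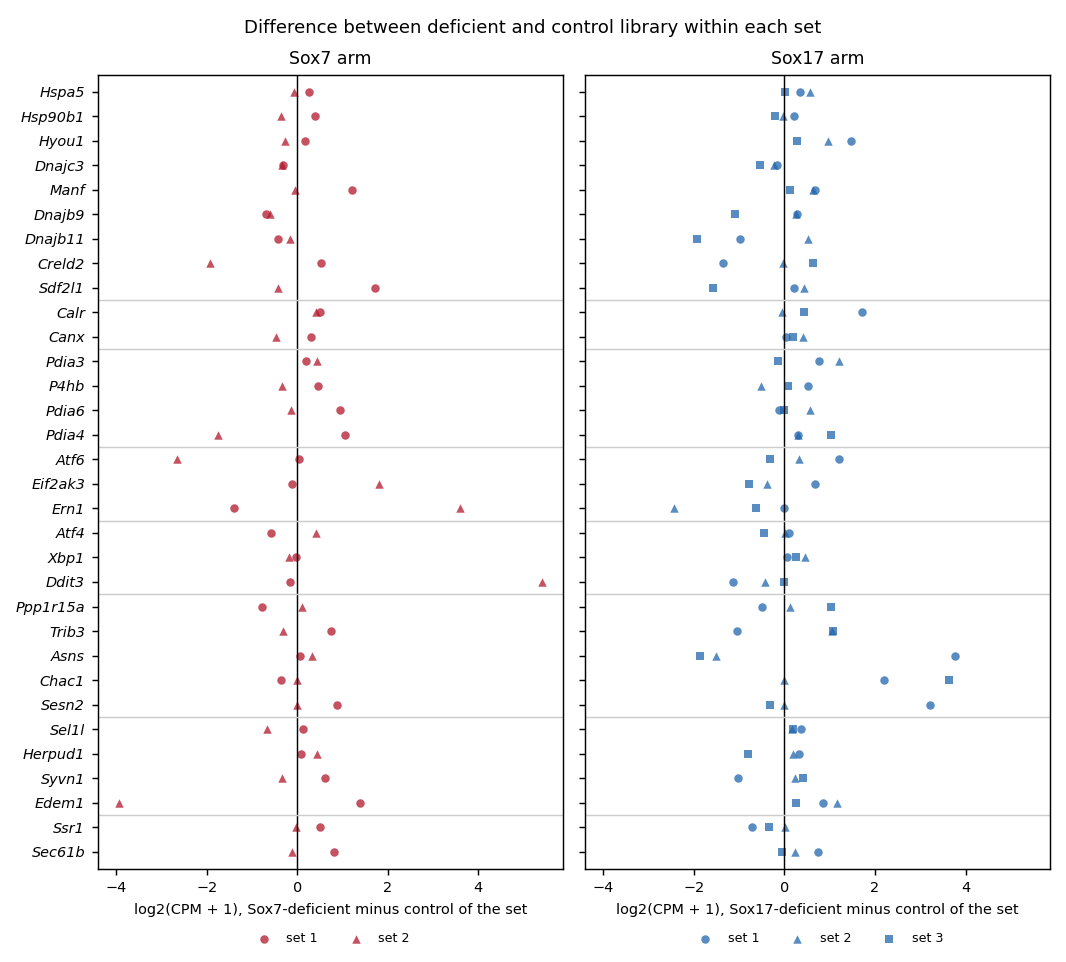
Difference between the deficient and the control library of each set in log2(CPM + 1), for the Sox7 arm (left, 2 sets) and the Sox17 arm (right, 3 sets), by gene. Dnajc3 lies below 0 in all 5 sets, and the set 2 triangle of Ddit3 at 5.41 comes from a control library with 3 counts.

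Sets differed more than genotypes did for most of these genes in 3 of the 4 pairs of sets. Over the 4 Sox7 libraries, the difference between the mean of set 1 and that of set 2 was larger in size than the difference between genotypes for 21 of the 32 (65.6%), against 56.8% of all genes. The median size of the set difference was 0.64 and that of the genotype difference 0.32 in log2(CPM + 1). Set 1 was the higher one for 23 of the 32, against 7892 of all 13040 genes. The median of set 1 minus set 2 was 0.45 for the 32 and 0.28 for all genes. It was 2.73 for Ddit3, 2.36 for Pdia4, 1.90 for Chac1, 1.87 for Pdia3 and 1.82 for Edem1. Calr was at 1.20 and Hsp90b1 at 1.12, while Asns went the other way, at −2.35. Set 1 is also the one with the larger Rn45s share in both of its libraries and with the macrophage transcripts of Sox7-deficient 1, and the part of either was not tested. In Sox7 control 1, which had 1289 CPM of macrophage markers, Pdia3 was at 1791 CPM and Calr at 895 CPM, above Sox7-deficient 2 and Sox7 control 2. Sox17 controls 1 to 3 had 30.4, 832 and 228 CPM of these markers. Pdia3 was at 440, 824 and 1521 CPM in those 3 libraries, and Calr at 134, 583 and 774 CPM. A relation between the markers and these genes was not tested. In the Sox17 arm the set difference was the larger one for 19 of 32 between sets 1 and 2, 21 of 32 between sets 1 and 3, and 14 of 32 between sets 2 and 3. All genes gave 48.7%, 50.2% and 48.9% for these pairs.

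**Figure D5:**
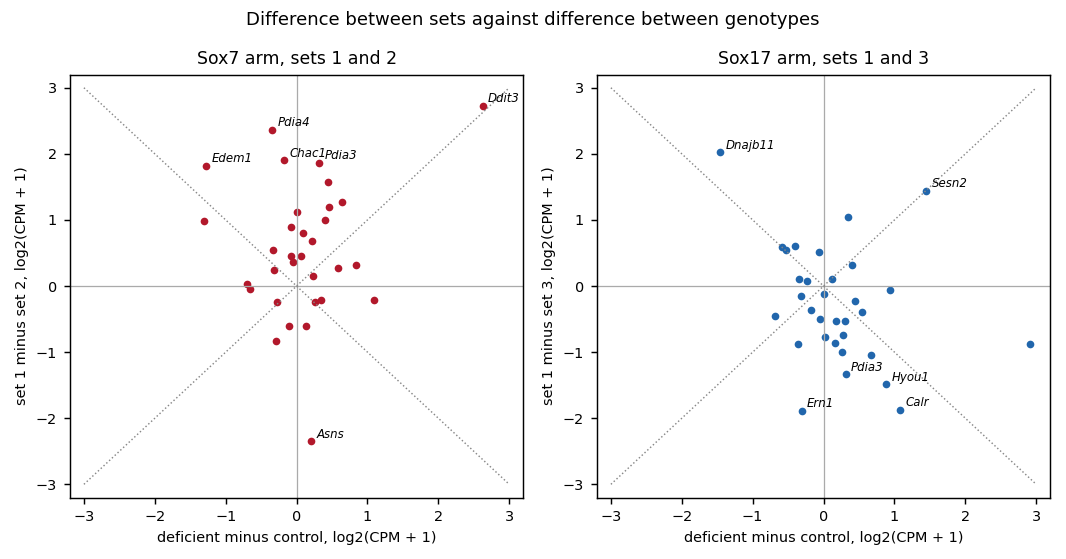
Difference between 2 sets (vertical) against the difference between deficient and control (horizontal) for each gene, both in log2(CPM + 1), in Sox7 sets 1 and 2 and Sox17 sets 1 and 3; on the dotted lines both are equal in size. In each panel 21 of 32 genes have the larger difference between sets.

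By set, the median difference of the 32 genes was 0.23 and −0.14 in Sox7 sets 1 and 2, and 0.30, 0.20 and −0.02 in Sox17 sets 1 to 3. Over all genes tested it was 0.03 and 0 in Sox7 sets 1 and 2, and 0.12, 0 and −0.12 in Sox17 sets 1 to 3. The sign of the median thus differed between the sets of each arm. Set beside all genes, the 32 were higher in Sox7 set 1, lower in Sox7 set 2 and higher in each Sox17 set. These distances were not tested. The Sox7 and Sox17 differences were also tested against each other, since each arm had its own controls. For 13 of the 32 genes the Sox7 difference was the larger and for 19 the Sox17 difference, with a median of −0.08, against 0.02 over all genes. With edgeR 0 of the 32 and 0% of all genes passed, and 0 of the 32 and 2.87% of all genes were counted at an unadjusted p under 0.05. DESeq2 called 0 of the 32 and 27 of all genes, and limma-voom called 0 of each. The smallest unadjusted p was 0.158, for Atf6, whose difference was −1.27 (SE 0.87).

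A further 103 genes of the pathway were read beside the 32, of which 100 were tested and 0 passed with edgeR in either comparison. In the Sox7 comparison 48 were above 0 and 52 below, with a median of −0.02, and in the Sox17 comparison 71 were above and 29 below, with a median of 0.20. The Sox17 split held 17 of 21 translocation and secretory genes, 16 of 20 further folding genes and 21 of 29 genes of the ATF4 and amino acid axis above 0. It also held 10 of 16 sensing and signalling genes and 8 of 15 further degradation genes above 0. In the Sox7 comparison those counts were 10 of 21, 11 of 20, 16 of 29, 7 of 16 and 4 of 15. Over all genes 51.9% and 52.8% were above 0 in the Sox7 and Sox17 comparisons. By set, the deficient library was the higher one for 60, 62 and 49 of the 100 in Sox17 sets 1 to 3, and for 15, 15 and 5 of the 20 further folding genes, whose median in set 3 was −0.26. Of the 100, 65 and 34 were higher in Sox7 sets 1 and 2. Of all 13040 genes, 6907, 6094 and 5678 were higher and 4872, 6427 and 7256 lower in Sox17 sets 1 to 3. In Sox7 sets 1 and 2, 6701 and 5669 of them were higher and 6185 and 6019 lower. The median over all genes in Sox17 set 3 was −0.12. Without Sox7-deficient 1, 34 of the 101 then tested were above 0 in the Sox7 comparison, against 37.6% of all genes. At an unadjusted p under 0.05, 2 of the 100 were counted in each full comparison, against 1.5% of all genes in the Sox7 and 3.52% in the Sox17 comparison.

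Among the pathway genes with 1 direction in all sets, Erp29, a lumenal relative of the disulfide isomerases, had the smallest p of the Sox7 comparison. It had 315 and 157 CPM in Sox7-deficient 1 and 2, against 101 and 78.5 CPM in Sox7 control 1 and 2, with both deficient libraries above both controls. Its log2 fold change was 1.39 (SE 0.58, unadjusted p = 0.0265, edgeR adjusted p = 1), and in the Sox17 arm it was 0.12 (SE 0.46). Gdf15, a secreted stress cytokine, had 159 and 5.57 CPM in Sox7-deficient 1 and 2, against 21.8 and 4.61 CPM in Sox7 control 1 and 2. It was above its control in all 5 sets, with 7.98, 4.43 and 31.0 CPM in Sox17-deficient 1 to 3, against 0.454, 2.45 and 6.998 CPM in Sox17 control 1 to 3. The lowest of these was a single count, and the groups overlapped in both arms. Derl2, a derlin of the degradation pathway, had 54.6 and 44.6 CPM in Sox7-deficient 1 and 2, against 17.96 and 2.30 CPM in Sox7 control 1 and 2. Sec24d, a cargo adaptor of the COPII coat, had 14.3 and 11.0 CPM in Sox7-deficient 1 and 2, against 15.8 and 47.7 CPM in Sox7 control 1 and 2. Both had groups apart and an edgeR adjusted p = 1. Without Sox7-deficient 1 the Sox7 log2 fold changes were 0.77 for Erp29, 2.11 for Derl2, −1.55 for Sec24d and, with its sign turned, −1.27 for Gdf15, each with an edgeR adjusted p over 0.8.

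In the Sox17 comparison 3 amino acid transporters were among the 4 pathway genes named, all lower in each deficient library than in its control. Slc7a1, which carries cationic amino acids, had 231, 332 and 329 CPM in Sox17-deficient 1 to 3, against 408, 501 and 662 CPM in Sox17 control 1 to 3. The groups did not overlap (log2 fold change −0.82, SE 0.37, unadjusted p = 0.0429, edgeR adjusted p = 1). It was also below control in both Sox7 sets, at 279 and 426 CPM in Sox7-deficient 1 and 2, against 440 and 481 CPM in Sox7 control 1 and 2. Slc7a5, a carrier of large neutral amino acids known from brain endothelium, had 1251, 2181 and 1872 CPM in Sox17-deficient 1 to 3, against 3772, 2236 and 3441 CPM in Sox17 control 1 to 3. These groups were apart as well, though set 2 differed by only 0.04 in log2(CPM + 1) (log2 fold change −0.83, SE 0.41, edgeR adjusted p = 1). Slc7a3, a further cationic carrier, had 4.13, 13.7 and 1.99 CPM in Sox17-deficient 1 to 3, against 33.6, 22.4 and 11.8 CPM in Sox17 control 1 to 3. Its log2 fold change of −1.75 (SE 0.75) had an unadjusted p of 0.0319 and an edgeR adjusted p = 1. Ssr4, of the translocon-associated complex, had 136, 79.4 and 137 CPM in Sox17-deficient 1 to 3, against 18.2, 62.5 and 86.1 CPM in Sox17 control 1 to 3, above control in each set with overlapping groups.

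Genes that respond to cell handling were read beside these because isolation of cells can induce them. Of 17 immediate early genes, 14 were below 0 in each comparison, with sums of 12230 and 11973 CPM in Sox7-deficient 1 and 2, against 19511 and 14332 CPM in Sox7 control 1 and 2. They summed to between 7701 and 12938 CPM in Sox17-deficient libraries, against 7050 to 15397 CPM in Sox17 controls. Of 12 cytosolic heat shock genes, 10 were below 0 in the Sox7 comparison and 9 above 0 in the Sox17 comparison. The sets differed in both lists. The deficient library was higher for 3 and 7 of the 12 heat shock genes in Sox7 sets 1 and 2. It was higher for 10, 4 and 4 of them in Sox17 sets 1 to 3. For the 17 immediate early genes these counts were 2 and 3 in the Sox7 sets, and 10, 3 and 4 in the Sox17 sets. With edgeR 0 of either list passed, and their part in the values above was not tested.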

How the data were processed

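The authors deposited raw whole-number counts of 3′ tags for each symbol, with a file for each library. Per the labels' protocols, 500 ng of Trizol-extracted RNA entered each Lexogen QuantSeq library. Bowtie2, edgeR and the mouse build mm10 are named per the submitters' processing notes, without versions; the annotation, the counter and its strand setting are not given in the sources used here. From these counts, 1183 symbols present only in the Sox17 files, all beginning with Mir, were left out, and repeated lines of a symbol were summed (35 and 43 symbols for the Sox7 and Sox17 arms). Groups and set numbers came from the sample titles. Counts were fitted in R 4.3.3 with edgeR 4.0.16 (quasi-likelihood F-test, robust, TMM scaling, filterByExpr) over all 10 libraries with a mean per group and 6 residual degrees of freedom. The filter removed 10198 of 23238 genes and 13040 were tested, with Benjamini-Hochberg adjusted p-values and a threshold of 0.05. Standard errors were derived from each fold change and its F statistic. Differences within a set use log2(CPM + 1). DESeq2 1.42.0 and limma 3.58.1 (voom) were alternatives, and the script was tested on simulated data.

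For 4 of the 5 sets the descriptions give both libraries the same run label, so set numbers were taken to pair them. The deviations from group means correlated by 0.193 in the Sox7 arm, where groups of 2 libraries force the same value on both sets. In Sox17 sets 1 to 3 the correlations were 0.120, 0.0911 and 0.0896. The genes and all lists were chosen with earlier results of these data known. Full values were given for Hspa5, Xbp1, Atf4 and Ddit3 and, per comparison, for genes of 1 direction in every set whose groups did not overlap. Of the other pathway genes, those named were the 4 of smallest unadjusted p per comparison among genes of 1 direction in every set. Values of the other genes were shown after they were seen, for completeness. Promoters are RefSeq's for GRCm38.p6; element sites were printed for every gene holding one, chosen after the search. Positions are those of GENCODE vM21 (GRCm38).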

Additional observations from a re-analysis of the deposited data

Results flagged for a closer look

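Xbp1 was the gene of the response whose direction differed between the arms in every set: the deficient library was the lower one in both Sox7 sets (by 0.03 and 0.18 in log2(CPM + 1)) and the higher one in all 3 Sox17 sets (by 0.05, 0.46 and 0.26). Of all 13040 genes, 2930 were lower in both Sox7 sets and 1713 were higher in all 3 Sox17 sets. The genes with both were not counted, so this direction is not read as a result about Xbp1. The difference between the 2 fold changes was −0.40 on the log2 scale (SE 0.63) and did not pass edgeR's test (unadjusted p = 0.535, adjusted p = 1.00 over all genes). No group here had enough libraries for a search for single outlying values.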

How the results depend on the processing

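The count of the 32 genes that passed stayed at 0 in every alternative run: RLE and upper quartile scaling, no filter, DESeq2, limma-voom, fits of 1 arm, the replicate block, Rn45s left out and each library left out in turn. The smallest adjusted p among them over all alternatives was 0.0854, for Ddit3 in the Sox7 comparison without Sox7 control 1, followed in that comparison by 0.131 for Edem1 without Sox7-deficient 1. The median of the 32 in the Sox7 comparison was between −0.42 and 0.44 with a library left out, both ends from Sox7-deficient libraries, and 0.08 with the replicate block that pairs the libraries of a set. In the Sox17 comparison it was between 0.08 and 0.28 with a library left out, 0.18 with the replicate block and 0.07 with DESeq2 and that block. The medians over all genes in these fits were 0.01 and 0.12 at the ends of that range, −0.001 with the block and −0.31 with DESeq2 and the block.

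Over all genes, edgeR called 0 in each contrast. In the Sox7, the Sox17 and the difference contrast this was 58, 30 and 58 with no filter, 3, 37 and 27 with DESeq2, 1, 6 and 3 with the replicate block, and 20, 106 and 41 with DESeq2 and the replicate block. With a library left out it was 0 to 14, 0 to 1 and 0 to 9. Upper quartile scaling turned the sign of Canx in the Sox7 comparison and of P4hb in the Sox17 comparison. Of Hspa5, Xbp1, Atf4, Ddit3 and the genes whose groups did not overlap in a comparison, signs there turned only where a library was left out, and these are given as the range over those fits. In the Sox7 comparison Hspa5 was between −0.45 (without Sox7-deficient 1) and 0.54, and −0.15 without Sox7 control 2. Xbp1 was between −0.44 and 0.26 (without Sox7 control 2), and 0.10 without Sox7-deficient 1. Atf4 was between −0.56 and 0.37 (without Sox7 control 1), and Ddit3 between −0.13 (without Sox7 control 2) and 7.48 (without Sox7 control 1, when the remaining control is the library with 3 counts). In the Sox17 comparison Atf4 was between −0.31 and 0.0062 (without Sox17 control 3). The cause was not tested. Pseudocounts of 0.25 and 5 in place of 1 moved no set difference of a named gene by more than the spread between sets. Fits of 1 arm alone tested 31 of the 32 genes in the Sox7 arm and 30 in the Sox17 arm and gave no difference contrast. Ern1, Asns, Chac1 and Sesn2 had libraries at 0 counts, and these were not the shallow ones alone: Sox17-deficient 2, of 35098704 counts, had 0 counts of Ern1, Chac1 and Sesn2, while Sox17-deficient 1, of 6681760 counts, had 41 of Chac1 and 60 of Sesn2.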
